A study of Ovis aries with 3 samples.

Results

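Families of short non-coding RNA made by RNA polymerase III, were followed in RNA from extracellular vesicles of sheep conceptuses: the RNA of the signal recognition particle (SRP RNA), Y RNA, vault RNA and 7SK RNA. Members were the rows of the deposited table whose Rfam-based description names one of these families. They numbered 142 of 25197 rows, with 19 SRP RNA, 14 Y RNA, 12 vault RNA and 97 7SK RNA rows. Every row is an annotated copy in the sheep genome, and the table does not say which copies are functional genes and which are pseudogenes.

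SRP RNA is the scaffold of the particle that binds the signal peptide of a nascent protein and docks the ribosome at the endoplasmic reticulum. Y RNAs are small hairpins held by the Ro60 and La proteins, and vault RNAs sit in the vault, a large hollow ribonucleoprotein. The 7SK RNA stores the transcription elongation kinase P-TEFb in an inactive complex in the nucleus. Y, vault and SRP RNAs are known as common passengers of extracellular vesicles in other mammals. Transcripts of RNA polymerase III end in a run of uridines and carry no poly(A) tail.

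The samples formed 1 group of 3 libraries with no control group, so no contrast between conditions existed and the question was what the vesicles carried. Intact day 14 conceptuses, each an embryo together with its membranes, were cultured for 24 h, each in a dish with 10 ml of medium holding 10% fetal bovine serum depleted of exosomes. Vesicles were precipitated from the medium after filtration at 0.2 µm, and 5 ng of total RNA entered a full-length cDNA kit whose primer anneals to poly(A) tails. The libraries are not tied to single animals by the labels, and p-values over them therefore measure only the spread between these samples, part of which may be technical.

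Values are RPKM-type units, reads scaled to gene length and library depth. That scaling does not account for capture by the poly(A) primer, so values set side by side between families describe the libraries. Whether capture differed between families was not tested. The summed values of libraries 1, 2 and 3 were 17480.7, 40060.3 and 9531.8, and the depth estimated from 1012 U6 spliceosomal RNA rows was 1.28 and 1.21 times that of library 2 in libraries 1 and 3. Of the markers fixed for conceptus epithelium, 2 of 6 rows (KRT8 and the interferon tau gene TP-1) stood at 1 or above in every library. Their list summed to 35.2, 170.7 and 35.6 in libraries 1, 2 and 3, of which KRT8 alone gave 26.3, 138.9 and 27.3. CDX2 and TFAP2C, on the same list, stayed at 0.5 or below in each library, and KRT18, KRT19 and PAG had no row. The sums were 0.9, 1.4 and 0.8 for 4 erythroid rows and 2.3, 5.8 and 4.8 for 7 leukocyte rows. None of these erythroid or leukocyte rows reached 1 in every library. Of 6 liver and plasma rows, APOA1 did so, and the list summed to 8.5, 16.6 and 11.9. Whether RNA of other cells or of the serum contributed to the members was not tested.

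The SRP RNA family had the highest mean value per copy in each library and the most copies with a repeatable value. A copy counted as detected when each of the 3 libraries gave it at least 1, a rule that 3.89% of all rows and 4.33% of the 2656 rows with an Rfam description met. Detection was reached by 9 of the 142 members (6.34%), and 7 of the 9 were SRP RNA copies. That is 7 of 19 SRP RNA rows (36.8%), 2 of 97 7SK RNA rows (2.06%), 0 of 14 Y RNA rows and 0 of 12 vault RNA rows. The SRP RNA share was above the background under every detection value and library set tried, whereas the 7SK RNA share was below it here and above it under some of them. With library 2 left out, 15 members were detected, and 4.45% of all rows. In bulk vesicle RNA, fewer vesicles with a transcript and less of it per vesicle cannot be told apart.

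The rule does not ask for the same number of reads in each family, because shorter genes step by more per read. The smallest value above 0 was 0.4, 0.5 and 0.4 in libraries 1, 2 and 3 among Y RNA rows and 0.5, 0.6 and 0.5 among vault RNA rows. It was 0.2 in each library among SRP RNA rows, and 0.1, 0.2 and 0.1 among 7SK RNA rows. A value of 1 was thus 1.67 to 2.5 times the smallest value in the Y and vault families and 5 to 10 times it in the SRP and 7SK families. Counting error is therefore larger for a Y or vault RNA copy at the same value.

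**Figure D1:**
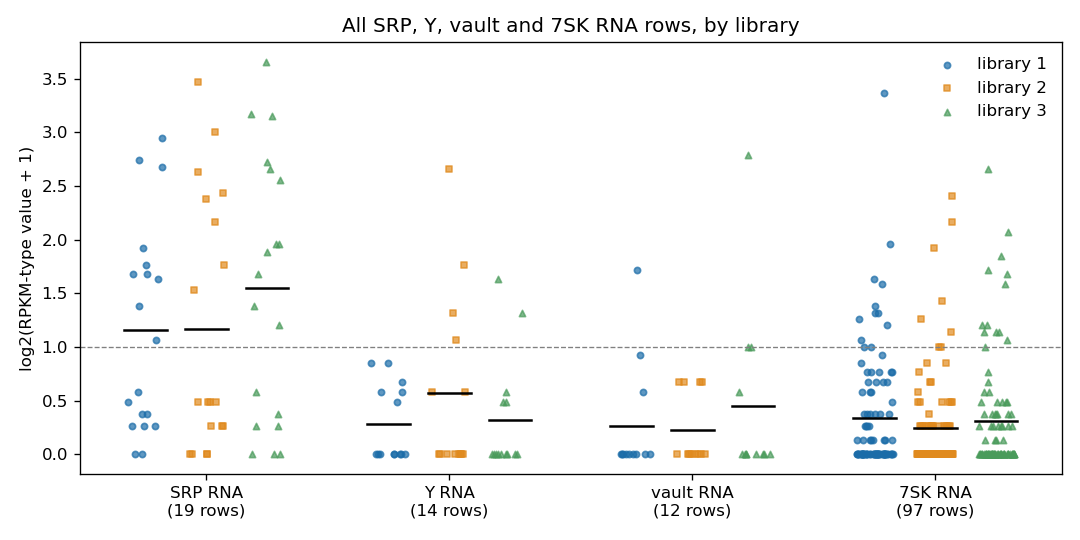
Each point is 1 of the 142 rows, on the log2(RPKM-type value + 1) axis, by family and library; black bars are means over copies and the dashed line marks the detection value of 1. SRP RNA copies spread up to 6.7, 10.1 and 11.6 in libraries 1, 2 and 3, while most copies of the other families lie at or near 0.

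The level of the SRP RNA family rested on a small number of copies. Metazoa_SRP_17 (ENSOARG00000023941) had the highest mean, with 2.4, 10.1 and 11.6 in libraries 1, 2 and 3 (8.03 ± 4.94, SD, n = 3), which placed it 299th of all rows and 5th among rows with an Rfam description. Metazoa_SRP_7 (ENSOARG00000021210) had 6.7, 7 and 8 (7.23 ± 0.681, SD, n = 3). The first copy was low in library 1 and high in the other libraries, whereas the second varied by 1.19 times between its lowest and highest library.

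Metazoa_SRP_15 (ENSOARG00000024340) followed the pattern of Metazoa_SRP_17, with 2.2, 5.2 and 7.9 in libraries 1, 2 and 3 (5.1 ± 2.85, SD, n = 3). Metazoa_SRP_12 (ENSOARG00000022256) was even across libraries at 5.4, 4.2 and 4.9 (4.83 ± 0.603, SD, n = 3). In Metazoa_SRP_4 (ENSOARG00000022759), at 5.7, 2.4 and 5.3, library 2 was the low one (4.47 ± 1.80, SD, n = 3). Copies of 1 family in the same libraries therefore differed in which library was highest. Metazoa_SRP_16 (ENSOARG00000023024) had 2.8, 4.4 and 2.2 (3.13 ± 1.14, SD, n = 3) and Metazoa_SRP_14 (ENSOARG00000024572) 2.1, 3.5 and 2.9 (2.83 ± 0.702, SD, n = 3). All 7 detected copies also stayed at 2 or more in every library.

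Below these 7 copies the values broke up. Metazoa_SRP_5 had 0.3, 0.4 and 5.6 in libraries 1, 2 and 3, a high value in library 3 alone. Metazoa_SRP_8 had 2.2, 0.4 and 2.7 and Metazoa_SRP_3 0.4, 1.9 and 2.9, so each missed detection through 1 library. The 4 copies Metazoa_SRP_6, Metazoa_SRP_10, Metazoa_SRP_19 and Metazoa_SRP_9 reached 1 in a single library, at 1.6, 1.3, 1.6 and 1.1. Metazoa_SRP_2, Metazoa_SRP_13 and Metazoa_SRP_18 stayed between 0.2 and 0.5 in all libraries, and Metazoa_SRP_1 and Metazoa_SRP_11 were listed at 0 in all of them. The lowest library value among detected SRP RNA copies was 2.1, and the highest such value among the rest was 0.4, so no SRP RNA copy lay near the detection value.

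**Figure D2:**
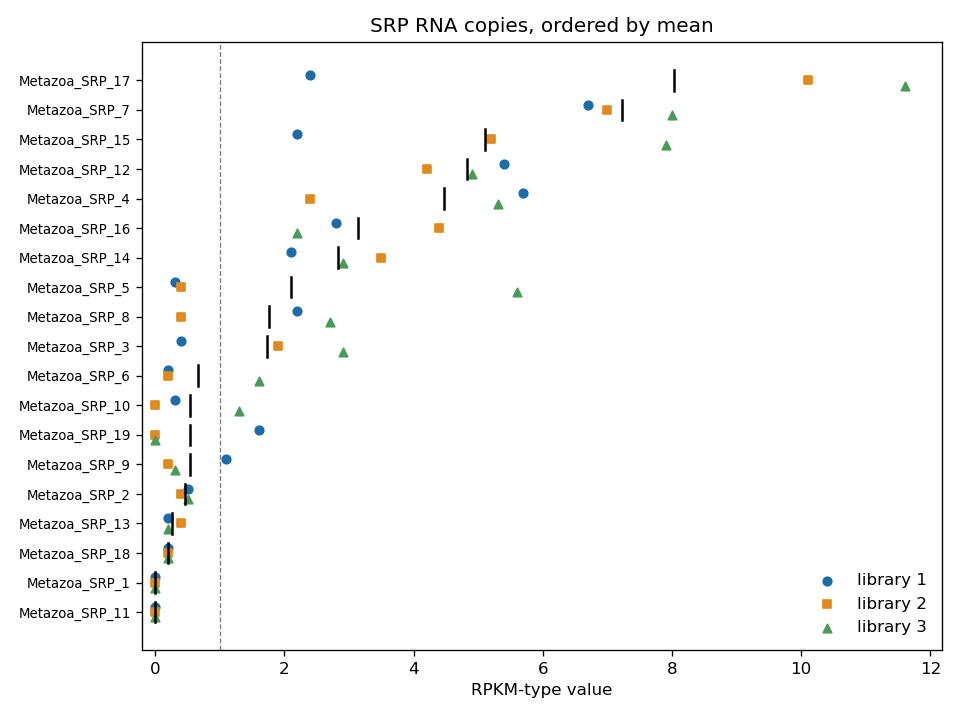
Values of the 19 SRP RNA copies in RPKM-type units on a linear axis, with 1 symbol per library, a black bar for the mean and a dashed line at the detection value of 1. The upper 7 copies lie to the right of the line in all 3 libraries, and Metazoa_SRP_5 crosses it in library 3 alone.

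The 7 detected copies held 79.6%, 89.98% and 73.7% of the summed SRP RNA value in libraries 1, 2 and 3. Detection was called on the same values, so a large share follows in part from the rule. The highest copy of each library held 21.4% ± 2.86 (SD, n = 3), and it was Metazoa_SRP_7 in library 1 and Metazoa_SRP_17 in libraries 2 and 3. A value above 0 in every library was found for 15 of 19 SRP RNA copies (78.9%), against 38.8% of all rows. The order of the copies was similar between libraries. Spearman's rho across the 19 copies was 0.78 between libraries 1 and 2, 0.71 between 1 and 3 and 0.86 between 2 and 3, as a description across copies that share a library and may share reads. Near-identical copies can exchange reads, and the counting rule for such reads is not given in the sources used here, so the division among copies is uncertain.

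7SK RNA had the most annotated copies and a low level per copy. Of 97 copies, 39 were listed at 0 in all 3 libraries (40.2%, against 21.6% of all rows). Above 0 in every library were 22 (22.7%, against 38.8%). Of U6 spliceosomal, 5S ribosomal and small nucleolar RNA rows, 53.9%, 45.3% and 61.8% were at 0 throughout. For U1 and U2 spliceosomal RNA the shares were 38.7% and 39.0%. In these 5 families 11.6%, 13%, 9.09%, 11.3% and 14.6% of rows were above 0 in every library. Some families of few rows were higher, such as 5.8S ribosomal RNA (40%). The median over copies was 0 in each library, beside 0.1 for all rows. A value of 1 or more in at least 1 library was reached by 20 copies (20.6%), near the 17.9% of all rows.

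7SK_43 (ENSOARG00000021733) and 7SK_60 (ENSOARG00000023690) were the detected copies. In 7SK_43 the values were 1.5, 4.3 and 5.3 in libraries 1, 2 and 3 (3.70 ± 1.97, SD, n = 3), and in 7SK_60 they were 2.9, 3.5 and 1.2 (2.53 ± 1.19, SD, n = 3). Library 3 was thus the highest for one and the lowest for the other. The copy with the highest mean, 7SK_80 (ENSOARG00000024936), was not detected, since it had 9.3 and 2.8 in libraries 1 and 2 and 0.4 in library 3. It had the largest SD of log2(value + 1), 1.44, of the members with a mean of 1 or more.

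Around the threshold, 7SK_57 (0.8, 1.4 and 1.3) and 7SK_71 (2, 0.8 and 2.2) fell just short in 1 library, and 7SK_60, at 1.2 in its lowest library, lay just inside. At a detection value of 0.5 the family had 9 detected copies (9.28%, against 7.56% of all rows) and at 2 it had 0 (against 1.89%). With 2 libraries in place of 3 the count was 4 without library 1 (4.12%, against 5.06% of all rows), 6 without library 2 (6.19%, against 4.45%) and 5 without library 3 (5.15%, against 7.29%). The side of the background on which 7SK RNA fell thus turned with the setting. The copies added to 7SK_43 and 7SK_60 were different ones in each set, such as 7SK_44 and 7SK_57 without library 1 and 7SK_80 without library 3.

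**Figure D3:**
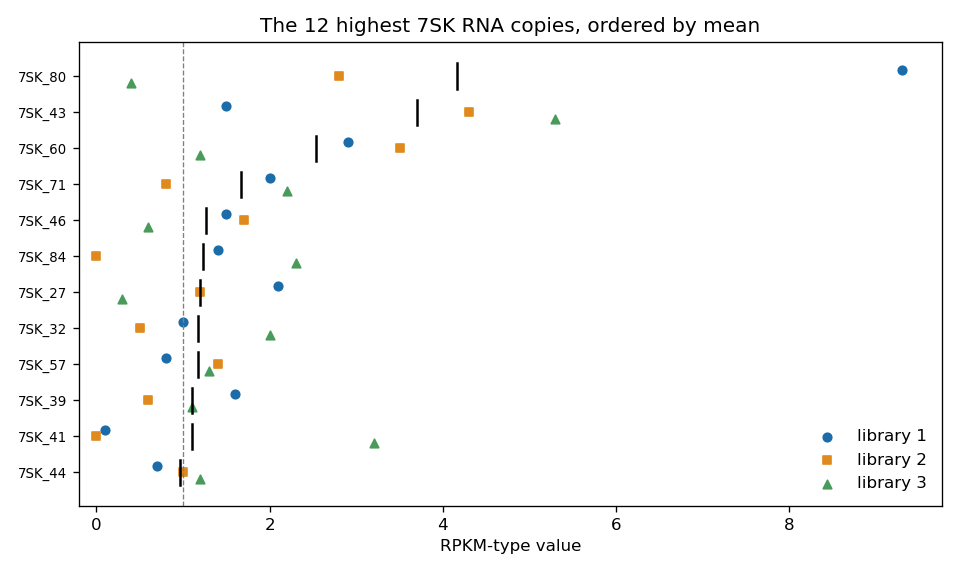
The 12 copies of 7SK RNA with the highest mean, in RPKM-type units on a linear axis, with 1 symbol per library, a black bar for the mean and a dashed line at the detection value of 1. 7SK_43 and 7SK_60 lie to the right of the line in all libraries, and 7SK_80 ranges between 0.4 and 9.3.

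Signal was spread unevenly over the 7SK family. The 11 copies with a mean of 1 or more, 11.3% of the family, held 61.1%, 63.2% and 58.0% of its summed value in libraries 1, 2 and 3. They were chosen by their means over the same libraries, so a large share follows in part from that choice. The highest copy held 18.4% ± 4.45 (SD, n = 3), and it was 7SK_80 in library 1 and 7SK_43 in libraries 2 and 3. Spearman's rho across the 97 copies was 0.53, 0.62 and 0.57 for libraries 1 and 2, 1 and 3, and 2 and 3, with many copies tied at 0.

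Y RNA signal was low and appeared in different copies from library to library. Y_RNA_8 (ENSOARG00000022123) had 0.5, 2.4 and 1.5 in libraries 1, 2 and 3 and came closest to detection. Y_RNA_7 (ENSOARG00000023901) had the highest mean but was listed at 0 in library 3, with 0.6 and 5.3 in libraries 1 and 2. Y_RNA_11 (ENSOARG00000025081) showed the opposite gap, at 0.8 and 2.1 in libraries 1 and 3 and 0 in library 2. Y_RNA_5 was the only other copy above 0 in all libraries, at 0.8, 0.5 and 0.4. Y_RNA_10 and Y_RNA_9 reached 1.5 and 1.1 in library 2, and 5 of the 14 copies were listed at 0 throughout (35.7%, against 21.6% of all rows). Among U1, U2, 5S, U6 and small nucleolar RNA rows that share was higher, between 38.7% and 61.8%. A value of 1 or more in at least 1 library was reached by 5 copies (35.7%, against 17.9% of all rows). With library 1 left out, Y_RNA_8 was detected, a count of 1 (7.14%, against 5.06% of all rows).

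Vault_5 and Vault_1 held 86.5% and 82.1% of the vault RNA sum in libraries 1 and 3 and 25% in library 2. This pair was chosen by its means over the same libraries, so a large share follows in part from that choice. Vault_5 (ENSOARG00000022561) had 0.9, 0 and 5.9 in libraries 1, 2 and 3, so its highest value and its value of 0 fell in different libraries. Vault_1 (ENSOARG00000024294) had 2.3, 0.6 and 1 and was the only copy above 0 in all libraries. Vault_6 (ENSOARG00000023142) stood at 0, 0.6 and 1, and 6 of the 12 copies were listed at 0 throughout (50%, against 21.6% of all rows). This share lay within the 38.7% to 61.8% of U1, U2, 5S, U6 and small nucleolar RNA rows. In library 2, the 4 copies above 0 all had the same value of 0.6, the smallest of the family there. The highest copy of each library held 62.2%, 25% and 70.2% of the summed value. With library 2 left out, Vault_1 was detected, a count of 1 (8.33%, against 4.45% of all rows). Vault_5 and Y_RNA_7 followed 7SK_80 as the members with the largest spread, with an SD of log2(value + 1) of 1.42 and 1.38.

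**Figure D4:**
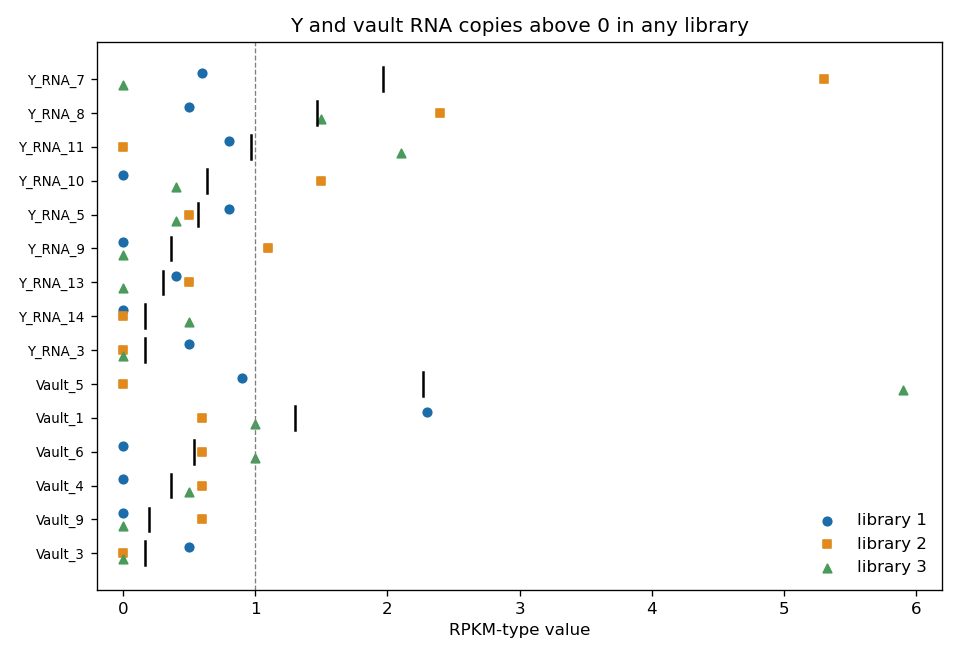
Values of the 9 Y RNA and 6 vault RNA copies that are above 0 in any library, in RPKM-type units on a linear axis, with 1 symbol per library, a black bar for the mean and a dashed line at the detection value of 1. No copy lies at or to the right of the line in all 3 libraries.

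Summed over copies, SRP RNA and 7SK RNA were of similar size and Y and vault RNA lower. SRP RNA summed to 34.3, 40.9 and 58.1 in libraries 1, 2 and 3 (44.4 ± 12.3, SD, n = 3) and 7SK RNA to 39.6, 26.6 and 34.3 (33.5 ± 6.54, SD, n = 3). Y RNA summed to 3.6, 11.3 and 4.9 (6.60 ± 4.12, SD, n = 3) and vault RNA to 3.7, 2.4 and 8.4 (4.83 ± 3.16, SD, n = 3). The ranges of SRP and 7SK RNA overlapped, as did those of Y and vault RNA, and no library of the first pair came within the range of the second.

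Differences between families were taken within each library on the log2(summed value + 1) scale and tested over the 3 libraries with an exact sign-flip permutation test, whose smallest two-sided p is 0.25. SRP RNA exceeded Y RNA by 2.68 ± 0.81 (SD, n = 3; exact p = 0.25, adjusted 0.375 over 6 pairs) and vault RNA by 3.06 ± 0.50 (SD, n = 3; exact p = 0.25, adjusted 0.375), in 3 of 3 libraries each. Y RNA minus 7SK RNA was -2.30 ± 1.02 and vault RNA minus 7SK RNA -2.68 ± 0.67 (SD, n = 3), below 0 in 3 of 3 libraries (exact p = 0.25, adjusted 0.375 for each). SRP RNA minus 7SK RNA was 0.38 ± 0.51 (SD, n = 3), above 0 in 2 of 3 libraries (exact p = 0.5, adjusted 0.6). Y RNA minus vault RNA was 0.38 ± 1.31 (SD, n = 3; exact p = 1), above 0 in library 2 alone, and without library 2 it was -0.35. No pair could pass 0.05 in this design.

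Per annotated copy, 7SK RNA joined the low families. SRP RNA averaged 2.34 ± 0.647 per copy, Y RNA 0.471 ± 0.294, vault RNA 0.403 ± 0.263 and 7SK RNA 0.345 ± 0.0674 (SD, n = 3 libraries), beside 0.887 ± 0.629 for all rows. The mean of all rows was 0.694, 1.59 and 0.378 in libraries 1, 2 and 3. U6, U1 and small nucleolar RNA rows averaged 0.415, 0.363 and 0.312, and U2 and 5S RNA rows 0.596 and 0.625. A low level per copy was thus not particular to Y, vault and 7SK RNA. On the log2(mean per copy + 1) scale SRP RNA exceeded Y, vault and 7SK RNA by 1.18 ± 0.39, 1.25 ± 0.15 and 1.30 ± 0.29 (SD, n = 3), above 0 in 3 of 3 libraries (exact p = 0.25, adjusted 0.5 for each). Among Y, vault and 7SK RNA the differences were at most 0.11 as a mean over libraries, and each changed sign between libraries (exact p = 1).

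**Figure D5:**
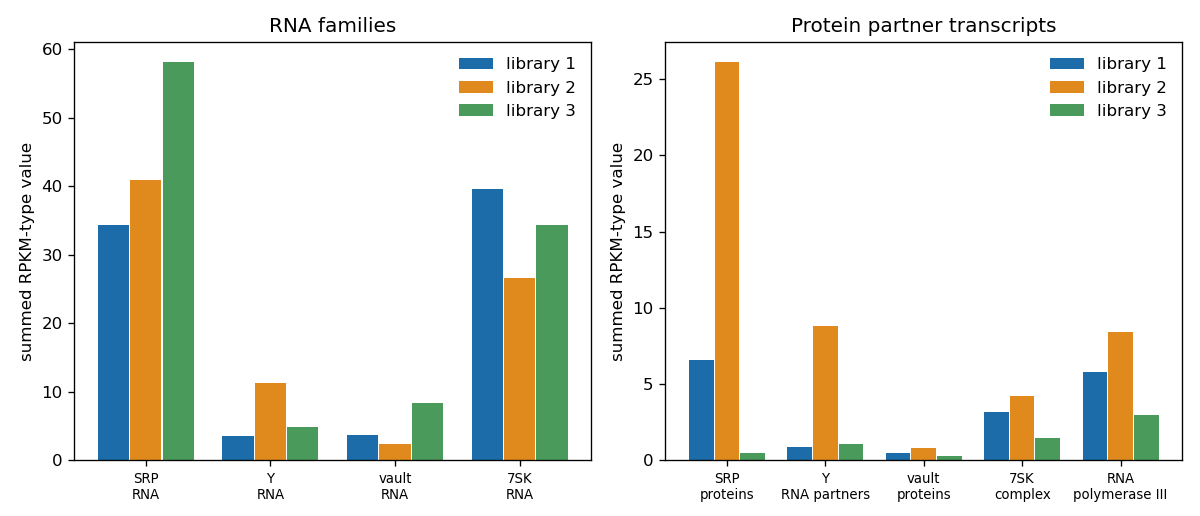
Bars give the summed RPKM-type value of each RNA family (left) and of the transcripts of each protein list (right) in libraries 1, 2 and 3, on linear axes that start at 0 and differ between panels. SRP RNA is highest in library 3, at 58.1, whereas SRP protein transcripts are highest in library 2, at 26.1, and lowest in library 3, at 0.5.

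The pooled sum of the members varied little between libraries, although that of single families did not always. Together they summed to 81.2, 81.2 and 105.7 in libraries 1, 2 and 3, a ratio of 1.30 between the highest and the lowest library, against 4.73 for rows without an Rfam description. By family the ratio was 1.69 for SRP RNA and 1.49 for 7SK RNA, but 3.14 for Y RNA, highest in library 2, and 3.50 for vault RNA, lowest in library 2. As a share of each library's summed value they made up 0.465%, 0.203% and 1.11%. SRP RNA alone took 0.196%, 0.102% and 0.610%, and 7SK RNA 0.227%, 0.066% and 0.360%. Library 3, which had the lowest total, held the largest share of each of the 4 families. Vault RNA took 0.021%, 0.006% and 0.088%, and Y RNA 0.021%, 0.028% and 0.051%.

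By the same ratio, the larger families of other structured RNAs were about as even as the pooled members or SRP and 7SK RNA. It was 1.26 for U2, 1.27 for 5S ribosomal, 1.31 for U6atac and 1.42 for small nucleolar RNA. For U6, U1 and U4 spliceosomal RNA it was 1.56, 1.62 and 1.82. Evenness was thus not particular to the members. The 2 U11 and 3 U12 rows gave 4.88 and 6.33, against 4.20 for all rows. All 2656 rows with an Rfam description summed to 1118.9, 982.1 and 1262.5, which was 6.40%, 2.45% and 13.2% of the libraries' totals. Within them the members' share was steadier, at 7.26%, 8.27% and 8.37% in libraries 1, 2 and 3. SRP RNA took 3.07%, 4.16% and 4.60% of the Rfam sum with 0.715% of its rows, and 7SK RNA 3.54%, 2.71% and 2.72% with 3.65% of its rows. Detection was 7 of 19 for SRP RNA, 47 of 1012 for U6 spliceosomal RNA (4.64%), 11 of 300 for 5S ribosomal RNA (3.67%) and 27 of 726 for small nucleolar RNA (3.72%). U1, U2 and U4 spliceosomal RNAs had 3 of 62, 2 of 41 and 2 of 40 copies detected, and U6atac RNA 4 of 47 (8.51%). Families of few rows gave 1 of 2 for U11 RNA and 1 of 5 for 5.8S ribosomal RNA, so the SRP RNA share was not the highest of any Rfam family.

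Library 2 had no majority of the members' highest values. Of 85 members with a single highest library, 30 were highest in library 1, 24 in library 2 (28.2%) and 31 in library 3. Among rows without an Rfam description 55.8% were highest in library 2, and among other Rfam rows 32.6%. For SRP RNA the split was 4, 3 and 8 copies, and for 7SK RNA 22, 14 and 19. Of 9 Y RNA copies, 5 were highest in library 2. None of these splits was tested.

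Transcripts of proteins that bind these RNAs or work with their particles were mostly highest in library 2. Of 19 rows of the SRP, Y RNA, vault and 7SK protein lists, 0 were detected, which with 3.89% of all rows as background shows nothing low about them. Their median log2(value + 1) was 0.55 for SRP proteins, 0.96 for Y RNA partners, 0.47 for the 7SK complex and 0.17 for the vault list, beside 0.18 for all rows. Of the 16 with a single highest library, 14 (87.5%) were highest in library 2, against 55.8% of rows without an Rfam description. Among the SRP proteins, SRP14, part of the domain that pauses elongation, had 4.3, 12.7 and 0 in libraries 1, 2 and 3. The receptor subunit SRPRB had 1.4, 7.6 and 0. Both were thus listed at 0 in the library in which SRP RNA was highest. Rows without an Rfam description as a whole were also lowest in library 3, with a sum 0.505 times that of library 1 and 0.212 times that of library 2. A relation between SRP RNA and these transcripts was not tested.

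The other SRP rows had their highest value, between 0.9 and 1.6, in library 2. SRP9, the partner of SRP14, stood at 0, 0.9 and 0, and SRP54, the subunit that binds signal peptides, at 0.4, 1.2 and 0.1. SRP68 had 0.3, 1.2 and 0.1, its partner SRP72 0.1, 1.6 and 0, and the receptor subunit SRPR 0.1, 0.9 and 0.3. The list of 7 rows summed to 6.6, 26.1 and 0.5.

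SSB, the La protein that binds the uridine end of new RNA polymerase III transcripts, had 0.8, 8.6 and 0.6 in libraries 1, 2 and 3, and TROVE2, the Ro60 protein, 0.1, 0.2 and 0.5. The vault shell protein MVP stood at 0.2 in each library. The other vault proteins PARP4 (0.1 in each) and TEP1 (0.1, 0.1 and 0) were lower, and the vault RNA methylase NSUN2 had 0.1, 0.4 and 0.

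In the 7SK complex, CCNT1, a cyclin of P-TEFb, was even at 1, 1.2 and 0.9 and missed detection by 0.1 in library 3. Its kinase CDK9 had 1, 1.1 and 0, and the other cyclin, CCNT2, 0.1, 0.5 and 0.1. LARP7, which binds the end of 7SK RNA, had 0.2, 0.3 and 0.1, the capping enzyme MEPCE 0.7, 0.5 and 0.2, and the P-TEFb inhibitor HEXIM2 0.2, 0.6 and 0.2. Of 17 rows for RNA polymerase III and its factors, 0 were detected, against 3.89% of all rows, and 4 reached 1 in a library (23.5%, against 17.9% of all rows). That list summed to 5.8, 8.4 and 3 in libraries 1, 2 and 3, with a median log2(value + 1) of 0.22, beside 0.18 for all rows.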

How the data were processed

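The authors deposited 1 table with a row per annotated gene and a value for each of 3 libraries. The unit is not named in it. The deposited values were taken as RPKM, rounded by the authors to 1 decimal, because short genes step by more than long genes (1 read in a U6 row was worth 0.424, 0.544 and 0.451 in libraries 1, 2 and 3, while protein rows had values of 0.1) and the columns had different totals; FPKM would look alike. Oar_v3.1 is the genome build that the submitters' processing notes name. For the aligner, the counter and the treatment of reads that fit several copies, the sources used here give nothing. Columns were matched to libraries by title.

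Members were found by description and analysed as values and as log2(value + 1) (pseudocount 1, no filter on low values) with Python 3.11.15, pandas 2.3.3 and NumPy 2.4.6. No gene lengths or sequences were used, and 0 members matched the RefSeq gene table, so whole reads were not recovered, no count test was run and no depth interval is given. Step estimation was checked on simulated data, and the sign-flip test on short fixed inputs with known answers. Members, lists (5 partner or polymerase and 4 marker lists) and tests were chosen with earlier results of these data known. Named copies were all detected ones, the 3 highest of each family, the 3 most variable with a mean of 1 or more, and all partner genes; others were named after their values were seen. Alternatives were other detection values, pseudocounts and filters, and leaving out each library.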

Additional observations from a re-analysis of the deposited data

How the results depend on the processing

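Of 72 alternative values for the differences between families, 62 kept their direction, including all that set SRP RNA against another family. Y RNA minus vault RNA in summed value turned to -0.35 without replicate 2. Per copy, the small differences Y minus vault, Y minus 7SK and vault minus 7SK turned to -0.10, -0.175 and -0.0736 when only copies with a mean of 0.5 or more were kept, and were 0 when the median over copies was used. Leaving out 1 library gave ranges of -0.20 to 0.27, -0.0838 to 0.25 and -0.10 to 0.12 for these 3 differences, and of -0.35 to 0.91 for Y minus vault in summed value. The cause was not tested.

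At a detection value of 0.5 the detected members numbered 18, with 1 Y RNA (Y_RNA_8), 1 vault RNA (Vault_1) and 9 7SK RNA copies (all rows: 7.56%), and at 2 the 7SK count was 0 (all rows: 1.89%). Without libraries 1, 2 and 3 the detected members numbered 13, 15 and 12 of 142, against 5.06%, 4.45% and 7.29% of all rows. Over these sets the counts ranged from 7 to 8 for SRP RNA, 4 to 6 for 7SK RNA and 0 to 1 for Y and vault RNA. Copies above 0 throughout ranged from 3 to 4 for Y RNA and 1 to 3 for vault RNA. The share of all rows was not taken for these sets, so whether the counts were high or low cannot be said. With all 3 libraries, 2 of 14 Y RNA copies (14.3%) and 1 of 12 vault RNA copies (8.33%) were above 0 throughout, against 38.8% of all rows. Fewer libraries make the rule easier to meet. The share of the 7SK sum in its highest copy was 23.5% among copies with a mean of 0.5 or more. Differences between families were taken within each library. Samples could not be paired between groups because there is only 1 group. Values near the step of 1 read limit what can be said of single Y and vault RNA copies.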

Other observations

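The RNAs of nuclear RNase P, which trims transfer RNA precursors, and of RNase MRP had 4 and 2 rows, of which 0 were detected, against 3.89% of all rows. The RNase P rows summed to 2, 2.6 and 5.6 in libraries 1, 2 and 3, and the RNase MRP rows to 0, 1.2 and 1. These rows were named after their values were seen.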
